A study of Mus musculus with 912 samples.

Results

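The CREB family and its coactivators are described here by 10 genes, taken by name from the deposited tables: the basic leucine zipper (bZIP) transcription factors Creb1, Crem, Atf1, Atf2 and Atf4, the CREB-regulated transcription coactivators Crtc1, Crtc2 and Crtc3, and the histone acetyltransferases Crebbp (CBP) and Ep300 (p300). All 10 were found among the 42802 genes of the count tables and the 40221 genes of the log2 tables. The rule that picked them used no measured value. Single nuclei were sorted from the hippocampus of wild-type female C57BL6 mice (7.75 to 9 weeks of age per the labels), and each nucleus was made into its own SmartSeq2 library. Mice stayed in the home cage (HC) or were placed in an unfamiliar environment for 15 min and collected 1 h, 4 h or 5 h later, and 2 further groups were returned after 4 h to the same box (A>A) or to a different box (A>C) and collected 1 h after that. HC nuclei were FOS−, 1h nuclei were sorted as FOS+ or FOS−, 4h and 5h nuclei were dentate granule (DG) nuclei with ARC but without FOS protein, and A>A and A>C nuclei were ARC+ DG nuclei with or without FOS. FOS protein was read as a mark of recent activity and ARC protein as a longer-lasting mark, so ARC in nuclei without FOS points to the earlier exposure, while ARC in FOS+ nuclei can stem from either exposure. All groups carry the same genotype.

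CREB1, CREM and ATF1 bind as dimers to the cAMP response element (CRE) in the promoters of activity-dependent genes, and kinases that respond to calcium and cAMP phosphorylate them so that CBP or p300 can be recruited. CRTC proteins enter the nucleus when calcineurin removes phosphate from them, and they strengthen CREB-dependent transcription. Most of this control acts on the proteins, which were not measured here, and in the hippocampus CREB-dependent transcription is known for its role in memory and neuronal excitability. CREM is an exception, since an internal promoter that CREB itself drives makes the short repressor ICER, and the deposited values are per gene, so ICER cannot be told apart from other Crem transcripts.

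The 3 members whose animal means separated most in the re-exposed DG nuclei, Atf4, Atf1 and Crtc1, are shown by their promoter windows, because a CRE in a promoter is the element that this family binds. Windows run from 250 bases before to 50 bases after the start of the RefSeq gene on GRCm38.p6, printed 5′ to 3′ on the strand of the gene. Those of 8 of the 10 members were searched. Crem was left out of the search and Crtc2 had no window in the table used here, so both are named only. Capitals mark the short CRE motif CGTCA on either strand, which is also contained in the full CRE TGACGTCA. The Atf4 window is chr15:80254934-80255233 on the plus strand, the Atf1 window chr15:100227609-100227908 on the plus strand and the Crtc1 window chr8:70439524-70439823 on the minus strand.
Atf4: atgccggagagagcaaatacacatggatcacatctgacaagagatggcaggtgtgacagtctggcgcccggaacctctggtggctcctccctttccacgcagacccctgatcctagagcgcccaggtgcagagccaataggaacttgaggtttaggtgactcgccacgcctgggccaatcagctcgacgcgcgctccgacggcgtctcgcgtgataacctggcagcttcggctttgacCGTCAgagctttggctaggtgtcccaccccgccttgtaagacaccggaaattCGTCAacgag
Atf1: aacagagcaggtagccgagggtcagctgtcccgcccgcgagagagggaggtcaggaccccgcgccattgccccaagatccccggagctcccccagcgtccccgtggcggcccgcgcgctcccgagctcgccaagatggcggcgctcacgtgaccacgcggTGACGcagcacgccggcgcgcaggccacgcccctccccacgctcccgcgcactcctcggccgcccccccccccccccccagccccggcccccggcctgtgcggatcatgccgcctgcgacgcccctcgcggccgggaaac
Crtc1: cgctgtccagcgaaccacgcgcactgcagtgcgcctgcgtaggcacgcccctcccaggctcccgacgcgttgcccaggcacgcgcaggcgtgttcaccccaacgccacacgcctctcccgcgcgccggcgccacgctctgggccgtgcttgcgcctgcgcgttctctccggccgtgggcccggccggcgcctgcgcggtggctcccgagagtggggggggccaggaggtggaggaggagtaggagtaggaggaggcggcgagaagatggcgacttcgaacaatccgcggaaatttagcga
The short motif began at positions -12 and 41 from the start site in Atf4 and at -90 in Atf1, and Crtc1 held none. Of the 8 members searched, which do not include Crem, 2 held the short motif, against 20.81% of all 32851 windows, and 0 held the full CRE, against 1.79% of all windows. The GC content of the 8 windows lay between 59.0% and 82.0%. These matches describe letters in a short window and say nothing of binding.

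Of 912 nuclei, 783 were used, and their total counts ran from 142275 to 5885216 with a median of 1251690. The replicate is the mouse: nuclei were averaged or summed within each mouse and group, which gave 61 mouse-by-group values of at least 2 nuclei each. Depth differed between DG groups, with group medians from 426841 counts per nucleus at 5h to 2469299 at 4h, so shares of nuclei with a count are given with the share after thinning every nucleus to 100000 counts. Both 1h DG groups come from 1 mouse, HC DG nuclei share no library date with another DG group, and A>C FOS+ and FOS− nuclei were made on different dates, so that date and group cannot be told apart there. A>A FOS+ and FOS− nuclei shared only some library dates. A>A mice 15 and 16 gave FOS+ nuclei alone and mice 19 and 20 FOS− nuclei alone, on differing dates. A>A FOS+ nuclei shared no date with the 4h and 5h nuclei. Date and group are thus partly mixed in the A>A tests as well. The DG labels were checked on 5 DG markers, all of which were detected in every DG group, and Prox1 had an animal mean of 3.84 or more in every DG mouse. Fos RNA was 3.84 in the FOS+ and 0.33 in the FOS− DG nuclei at 1h, and Arc RNA was 9.75 and 0.99. All levels are means of the deposited log2(TPM+1), which is per transcript length and can be set side by side between genes.

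Every member was detected, and they spanned a wide range of levels. Atf2, a bZIP factor that answers to stress kinases and pairs with JUN proteins, had the highest mean, 4.64 ± 1.53 (SD, n = 61 mouse-by-group values), followed by Crebbp with 4.15 ± 1.02 and Crtc1 with 3.82 ± 1.63. Crtc3 followed with 3.05 ± 0.89, Ep300 with 2.68 ± 1.44, Atf4 with 2.54 ± 1.60, Creb1 with 2.33 ± 1.27 and Crtc2 with 2.24 ± 0.88. Crem and Atf1 were lowest, with 1.34 ± 1.38 and 1.18 ± 0.97, and neighbours in this order differed by less than the larger SD of the pair. Atf2 lay at percentile 96.2 and Atf1 at percentile 70.7 of 29715 detected genes. The mean of Creb1, the factor that names the family, lay below those of the coactivators Crebbp, Crtc1, Crtc3 and Ep300, by less than 1 SD for Crtc3 and Ep300.

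Detection followed a similar order. Crtc3 had a count in 98.3% of the 783 nuclei, Crebbp in 96.2% and Atf2 in 94.9%, and after thinning these shares were 70.8%, 81.2% and 66.9%. Creb1 had a count in 63.9% of nuclei (36.7% thinned), Atf4 in 46.0% (32.3%), Atf1 in 32.1% (16.0%) and Crem in 27.6% (15.3%). A nucleus held a count of 7 of the 10 members in the median, with a range of 3 to 10, and of 4 after thinning. Over the 61 values the 45 pairs of members had Pearson correlations between -0.28 and 0.45 with a median of 0.12, given as a description, since points share mice, depth and cell type. No gene had a correlation of 0.8 or more with any member, so none is named as alike.

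**Figure D1:**
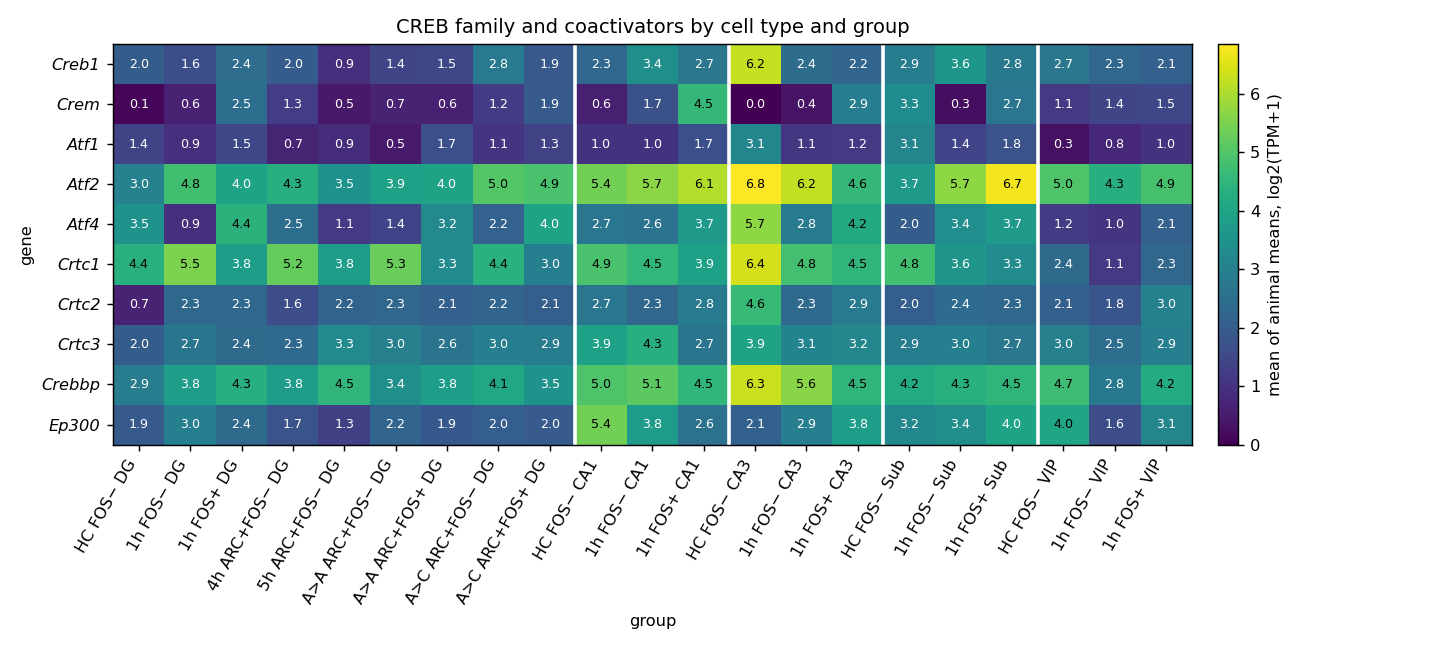
Mean over mice of the animal mean log2(TPM+1) of the 10 members (rows) in the DG, CA1, CA3, subiculum (Sub) and VIP groups (columns), with each mean printed in its cell. Atf2, Crtc1 and Crebbp are high in most columns, and Crem is near 0 in HC DG nuclei and 4.5 in FOS+ CA1 nuclei.

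Cell types were compared in FOS− nuclei of HC and 1h mice, using the authors' predicted types. Atf2 was 6.43 ± 1.21 in CA3 (SD, n = 3 mice), 5.52 ± 1.50 in CA1 (n = 6), 4.89 ± 1.93 in the subiculum (n = 5), 4.56 ± 0.89 in VIP interneurons (n = 5) and 3.61 ± 1.06 in DG (n = 3), and neighbours in this order differed by less than the larger SD of the pair. Crtc1, the CRTC best known from neurons, had 5.34 ± 1.36 in CA3, 4.74 ± 1.54 in DG, 4.71 ± 1.13 in CA1, 4.04 ± 1.62 in the subiculum and 1.63 ± 1.32 in VIP interneurons. The 4 glutamatergic types lay within 1 SD of their neighbours for Crtc1, and the VIP mean lay below theirs by more than the SDs, although the highest VIP mouse (3.57) lay above the lowest mouse of the subiculum (1.43), CA1 (2.92) and DG (2.97). With edgeR's quasi-likelihood test the Crtc1 difference of DG over VIP was 3.16 ± 1.32 (log2 fold change ± SE, adjusted p = 0.516), which did not pass. Crebbp ran from 5.86 ± 0.46 in CA3 and 5.05 ± 0.84 in CA1 to 3.21 ± 0.77 in DG, and Ep300 from 4.57 ± 2.31 in CA1 to 2.28 ± 0.60 in DG. Creb1 lay between 3.69 ± 3.03 in CA3 and 1.89 ± 0.57 in DG. Crem had 1.49 ± 1.78 in the subiculum, 1.31 ± 1.13 in VIP interneurons and 1.15 ± 0.99 in CA1, against 0.27 ± 0.33 in DG and 0.23 ± 0.41 in CA3. Ivy and Pvalb interneurons and thalamic (Th) nuclei had FOS− values from 2, 1 and 1 mice and are not ranked.

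No member passed the main test between cell types. In 5 comparisons of FOS− nuclei (DG with CA1, VIP with CA1, DG with VIP, subiculum with CA1 and CA3 with CA1) edgeR called 0 of 10 members, where it called 0.0931%, 0.372%, 0.257%, 0.00887% and 0% of all 22551 genes. DESeq2 on the same sums called Crem lower in DG than in VIP (adjusted p = 0.0453, with 6.71% of all genes called) and Ep300 lower in CA3 than in CA1 (adjusted p = 0.0189, 7.12%), for which edgeR gave -3.86 ± 1.72 (adjusted p = 0.996). limma called 0 members in these comparisons, where it called 0.49%, 2.19%, 1.55%, 0.175% and 2.2% of all genes. These comparisons share mice with each other. The FOS+ over FOS− difference was also compared between DG and CA1, DG and VIP, and CA1 and VIP, where edgeR, DESeq2 and limma called 0 of 10 members (edgeR called 0.00443%, 0.00887% and 0% of all genes, and 1.53%, 2.2% and 5.84% at an unadjusted p under 0.05, DESeq2 called 1.98%, 2.88% and 2.77%, and limma called 0.0146%, 0.00731% and 0%).

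**Figure D2:**
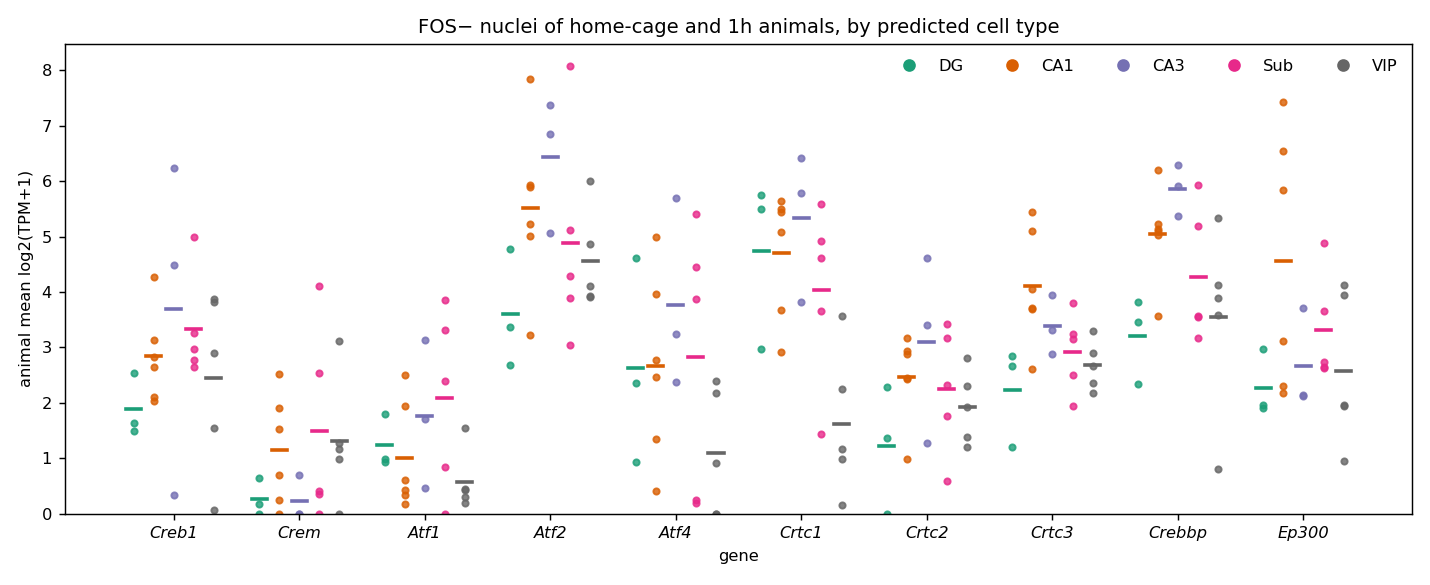
Animal mean log2(TPM+1) of each member in FOS− nuclei of HC and 1h mice, with 1 point per mouse and a bar at the mean for DG, CA1, CA3, subiculum (Sub) and VIP. The spread between mice of 1 cell type is as wide as most differences between types, and the Crtc1 points of VIP lie low but overlap those of 1 or more other types.

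Over all 26 comparisons edgeR's quasi-likelihood test called 0 of 10 members at an adjusted p under 0.05. Of the 260 member tests 14 (5.38%) had an unadjusted p under 0.05, against 6.09% of the tests over all genes, a share near the background. DESeq2 called 11 of the 260 member tests and limma on the animal means called 4, and these calls are given by member in what follows. With DESeq2, 32 member tests (12.31%) had an unadjusted p under 0.05, against 10.7% of the tests over all genes. With limma, 30 (11.54%) did, against 8.34%. Whether these member shares differ from those over all genes was not tested, so single member calls are not read as a response of the family. For FOS+ over FOS− nuclei DESeq2 called 0 of 10 members in DG at 1h and after A>A, where it called 4.3% and 3.6% of all genes. Where limma called 0 members in DG it called 0.883% of 11436 genes for 1h FOS+ over FOS−, 0.0525% for 1h FOS− against HC, 4.24% for 4h against HC, 0.726% for A>C FOS+ over FOS− and 0.14% for A>A FOS− against 5h. The dispersion between summed mice was high, at 1.74 to 2.01, and the sums of a mouse can rest on few nuclei.

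Crem, which encodes both activators and the repressor ICER, was near 0 in DG nuclei at rest. HC mouse 6 had 0 counts in 18 nuclei and HC mouse 7 had 1 count in 5 nuclei, which gave animal means of 0.00 and 0.17. Mice with fewer than 2 nuclei have no animal mean. With theirs included, 3 of 25 HC DG nuclei from 4 mice had a Crem count, with 3 counts in total. At 1 h the single DG mouse had a mean of 2.47 in FOS+ nuclei, with a count in 11 of 26 nuclei, and 0.64 in FOS− nuclei, with a count in 6 of 27. After thinning the shares were 38.5% and 7.41%. In the 4h mice Crem was 0.90 and 1.60, and in the 5h mice it was 0.04, 0.09, 0.48 and 1.20. The 1h FOS+ value and both 4h values lay above both HC values, as did 4h over HC values for 16.5% of 11935 genes, while the 5h values overlapped them. edgeR did not call Crem in DG FOS+ nuclei at 1h against HC (adjusted p = 0.602, against 0.27% of 24405 genes called) or at 4h (0.822, 0.246%) or 5h (0.262% of genes called). DESeq2 called it in all 3 (adjusted p = 0.0076, 0.0155 and 0.0327), where it called 7.28%, 4.14% and 8.14% of genes, and limma called it at 1h alone (difference 2.38 ± 0.51, adjusted p = 0.00823, 4.28% of genes called). In FOS− nuclei at 1h against HC none of the 3 tools called a member (edgeR called 0.0041% of genes, and 2.8% at an unadjusted p under 0.05, and DESeq2 called 2.52%). No fold is given against HC nuclei with 0 and 1 counts. These 3 comparisons share the HC mice, and Crem belongs to a group of early genes that the study chose on these samples, so its direction is not independent evidence.

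In CA1 and CA3 the same mouse gave FOS+ and FOS− nuclei, and Crem was higher in the FOS+ nuclei each time. In CA1 it was 3.13, 5.94 and 4.58 in FOS+ nuclei of mice 2, 4 and 10 and 0.69, 1.91 and 2.52 in their FOS− nuclei, so the groups did not overlap, as for 5.42% of 13496 genes in this direction, and HC mice had 0.00, 0.25 and 1.52. In CA3 it was 2.24 and 3.62 in FOS+ nuclei of mice 4 and 10 and 0.00 and 0.70 in their FOS− nuclei. In the subiculum it was 5.53, 0.97 and 1.58 in FOS+ nuclei of mice 2, 4 and 10 and 0.41, 0.35 and 0.00 in FOS− nuclei. HC subiculum nuclei had 2.55 and 4.11, at or above most FOS+ values, and so the subiculum FOS+ level did not stand above rest. In VIP interneurons the mice went opposite ways, with 2.30 in FOS+ and 1.17 in FOS− nuclei of mouse 4 but 0.67 and 3.11 in mouse 5, whose FOS+ mean came from 1 of 14 nuclei.

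edgeR called 0 of 10 members in CA1 FOS+ against FOS− nuclei and against HC (0% of 14507 genes called in each, and 4.34% and 4.8% at an unadjusted p under 0.05), in subiculum (0% of 22551 genes, 9.05% unadjusted) and in CA3 (0%, 2.38% unadjusted). Crem was among the members with an unadjusted p under 0.05 in CA1 FOS+ against HC (adjusted p = 0.998), in the subiculum (0.544) and in CA3 (1.00). DESeq2 called Crem in CA1 FOS+ against HC (adjusted p = 0.00412, 1.68% of genes called) and in the subiculum (0.0028, 6.6%), but not in CA3 (0.0523, 2.14%), and limma called it in none of them. The FOS− nuclei of HC and 1h mice had been filtered on Arc, and the 16 HC CA1 nuclei left out had a mean Crem of 1.31, against 0.29 in the 19 kept, and the 11 FOS− CA1 nuclei at 1h had 0.86, against 1.25 in the 21 kept. With those nuclei kept edgeR again called 0 members.

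**Figure D3:**
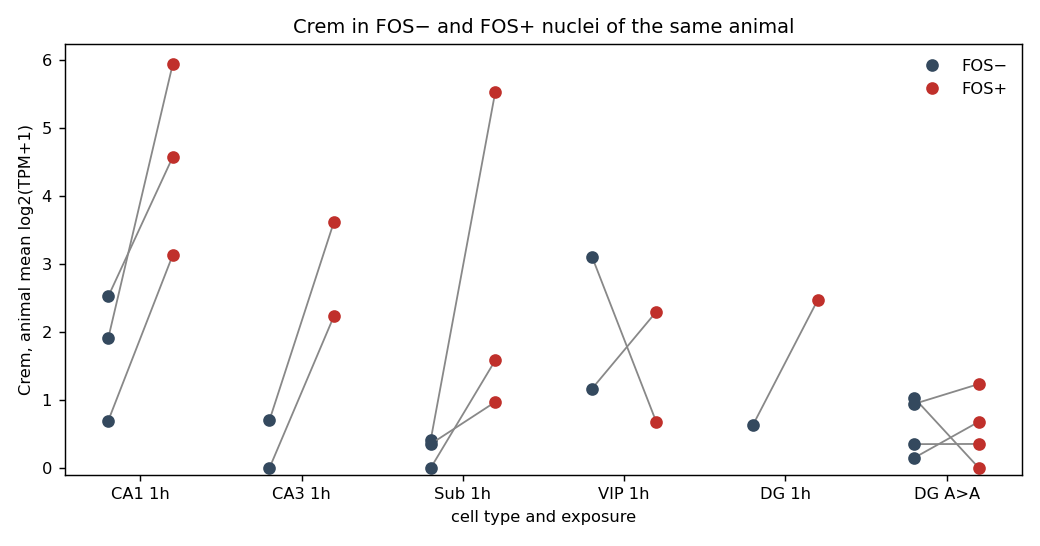
Crem animal mean log2(TPM+1) in FOS− (left) and FOS+ (right) nuclei of the same mouse, joined by a line, by cell type and exposure. All lines rise in CA1, CA3, subiculum and the 1h DG mouse, cross in VIP interneurons, and are nearly flat or mixed after A>A.

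After re-exposure to the same box Crem did not separate FOS+ from FOS− nuclei. A>A FOS+ nuclei had a mean of 0.64 ± 0.45 (SD, n = 6 mice) and A>A FOS− nuclei 0.66 ± 0.34 (n = 6), with fully overlapping mice (two-sided exact permutation p = 0.937). The difference was -0.02 on the log2 scale. A>C mice had 1.63 and 2.25 in FOS+ nuclei and 1.07 and 1.38 in FOS− nuclei, all above the highest A>A value of 1.24 except for the 1.07. edgeR gave a difference of -1.70 ± 1.83 for A>A against A>C FOS+ nuclei (adjusted p = 1.00, 0% of 24405 genes called), and DESeq2 and limma also called 0 members there, where DESeq2 called 4.73% of genes and limma 0%. Whether the A>A mice differ from the single 1h mouse was not tested.

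Atf4, a bZIP factor of the integrated stress response whose protein is mostly set by translation, had a higher mean in FOS+ than in FOS− nuclei after A>A, by a raw exact permutation p that did not hold once adjusted over all genes. The FOS+ means were 3.88, 3.39, 3.07, 3.80, 3.27 and 1.88 in mice 15, 16, 24, 25, 26 and 27, and the FOS− means were 1.27, 1.16, 1.57, 2.71, 1.23 and 0.38 in mice 19, 20, 24, 25, 26 and 27. FOS+ values lay above FOS− values apart from mouse 27 with 1.88, which is below the 2.71 of the FOS− nuclei of mouse 25. The group means were 3.22 ± 0.72 and 1.38 ± 0.76 (SD, n = 6 and 6, two-sided exact permutation p = 0.0043, smallest possible 0.00216, and this is 1 of 30 such tests). Adjusted over all 11196 genes that exact permutation test gave p = 0.0991. The same raw test passed 3 of the 10 members (Atf4, Atf1 and Crtc1) and 16.3% of all genes, and 0% of genes passed it after adjustment. Thinned shares of nuclei with a count were 41.6% and 17.2% (exact permutation p = 0.0043), and the FOS− nuclei were the deeper, with a median of 2133171 counts against 1667494.5. Within mice 24 to 27, which gave both kinds of nuclei on the same dates, the difference was 1.54 and positive in 4 of 4, with an exact permutation p of 0.0571 without and 0.125 with a replicate block for the mouse, where 0.125 is the smallest p that 4 pairs allow. edgeR on the summed counts gave a log2 fold change of 1.20 ± 0.84 (adjusted p = 0.583, 0.041% of 24405 genes called), and limma called it (1.83, adjusted p = 0.0375, 2.96% of 11436 genes called). Summed levels of 5 DG markers were 12.0 to 17.0 in the FOS+ and 12.7 to 19.9 in the FOS− mice, of 5 VIP markers 3.08 to 8.67 and 2.35 to 6.08, and of 4 oligodendrocyte markers 3.31 to 9.08 and 4.23 to 8.18. Their part in the differences of Atf4, Atf1 and Crtc1 was not tested.

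The same direction appeared for Atf4 in the other DG exposures, each with too few mice for a test of a single value. The 1h mouse had 4.40 in FOS+ and 0.93 in FOS− nuclei, and A>C mice had 4.91 and 3.02 against 1.58 and 2.74. HC mice had 2.35 from 18 nuclei and 4.62 from 5 nuclei, so the FOS+ animal means did not lie clear of those at rest. Pooled over nuclei, as a description, the HC mean was 2.62. It was 4.40, 3.21 and 3.97 in 1h, A>A and A>C FOS+ nuclei. HC nuclei share no library date with these, and 2 HC mice do not settle whether FOS+ nuclei lie above rest. The ARC+FOS− nuclei of 4h mice had 2.68 and 2.27, and those of 5h mice had 0.18, 0.28, 1.84 and 2.25. The A>A FOS+ mean lay above that of these 6 mice (1.58 ± 1.08, raw exact permutation p = 0.0087, and 0.142 adjusted over 11115 genes), with mouse 27 below 3 of them, and the A>A FOS− mean was within their spread (p = 0.703 by the same exact test). At 5h against HC limma called Atf4 lower (-2.35, adjusted p = 0.0367, 11.7% of genes called), and edgeR gave -1.64 ± 1.19 (adjusted p = 0.617). Atf4 is also in the study's own early gene group, chosen on these samples.

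Atf1, a CREB paralogue, had means in the same order at a lower level. A>A FOS+ means were 1.96, 2.03, 2.05, 0.55, 2.58 and 0.86 in mice 15, 16, 24, 25, 26 and 27 and FOS− means 0.62, 0.43, 0.69, 0.80, 0.44 and 0.03 in mice 19, 20, 24, 25, 26 and 27. All but mouse 25 of the FOS+ means lay above every FOS− mean. The groups were 1.67 ± 0.79 and 0.50 ± 0.27 (SD, n = 6 and 6, raw exact permutation p = 0.013, and 0.164 adjusted over all genes), and thinned shares were 21.1% and 6.40% (exact permutation p = 0.0303). In mice 24 to 27 the difference was 1.02, higher in 3 of 4 mice (exact permutation p = 0.114, and 0.25 with the replicate block). The 1h mouse had 1.49 in FOS+ and 0.93 in FOS− nuclei, and A>C mice 1.68 and 1.01 against 0.95 and 1.17, so that the A>C groups overlapped. HC mice had 1.81 and 0.99, above every A>A FOS− mean and within the range of the A>A FOS+ means. FOS+ nuclei were thus not shown to lie above rest. For A>A FOS+ over FOS− nuclei edgeR gave 1.45 ± 1.06 (adjusted p = 0.609), and limma called Atf1 (1.17, adjusted p = 0.0336).

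Crtc1, the coactivator that carries calcium and cAMP signals from synapse to nucleus, had a lower mean in FOS+ nuclei. A>A FOS+ means were 3.68, 3.58, 1.80, 2.31, 4.37 and 4.15 in mice 15, 16, 24, 25, 26 and 27 and FOS− means 5.06, 4.87, 6.04, 4.23, 6.55 and 4.89 in mice 19, 20, 24, 25, 26 and 27. Only the 4.23 of mouse 25 lay among the FOS+ values. The means were 3.31 ± 1.03 and 5.27 ± 0.85 (SD, n = 6 and 6, raw exact permutation p = 0.0043, and 0.0991 adjusted over all genes). After thinning the shares of nuclei with a count were 54.8% and 70.4% (exact permutation p = 0.0974), so this readout did not pass. Mice 24 to 27 gave a difference of -2.27, negative in 4 of 4 mice (exact permutation p = 0.0571, and 0.125 with the replicate block). Against the 4h and 5h mice neither A>A group differed beyond the spread (exact permutation p = 0.255 and 0.219). The 1h mouse had 3.84 in FOS+ and 5.50 in FOS− nuclei, A>C mice had 2.98 and 2.96 against 3.87 and 4.86, and HC mice had 2.97 and 5.74. edgeR gave -0.96 ± 0.51 (adjusted p = 0.391) and limma -1.96 (adjusted p = 0.0894), and neither called Crtc1.

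**Figure D4:**
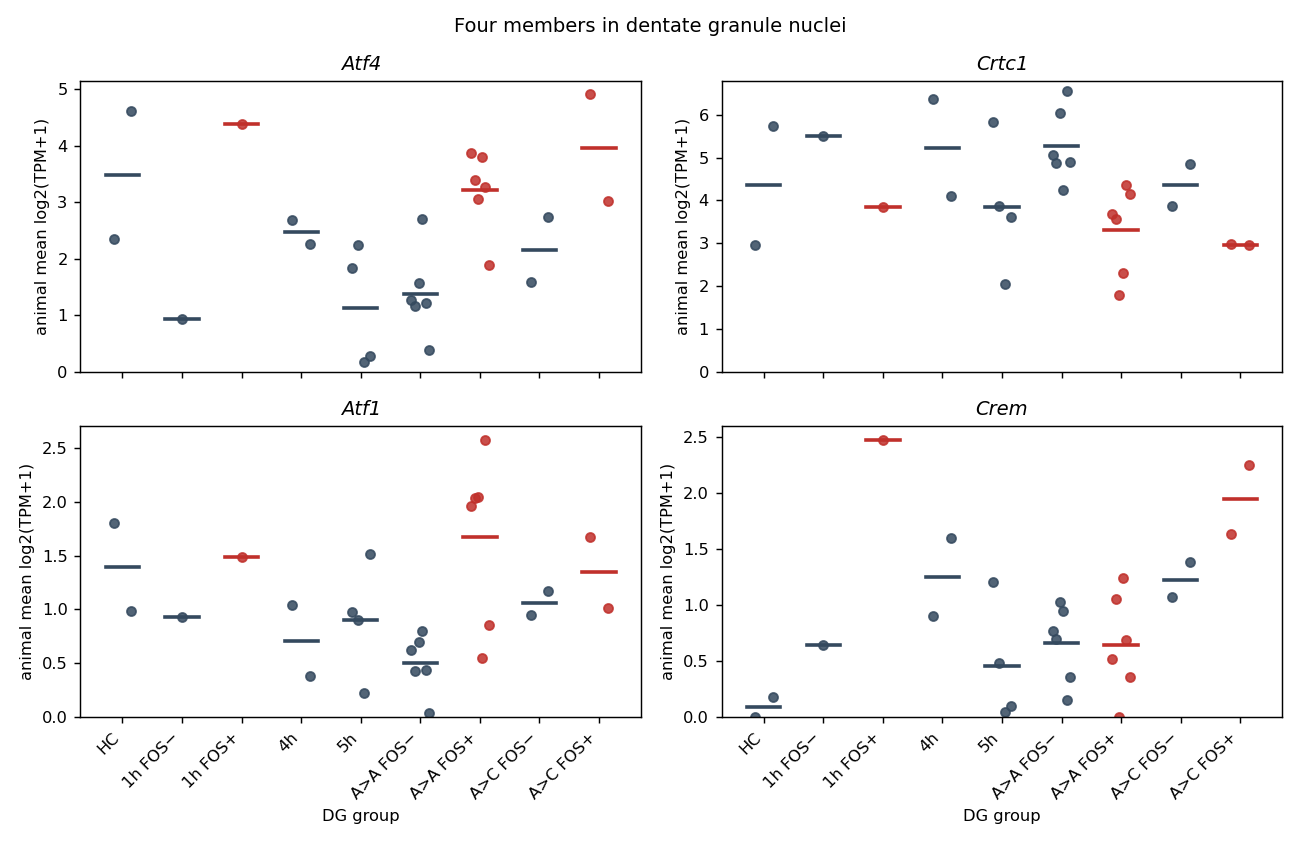
Animal mean log2(TPM+1) of Atf4, Crtc1, Atf1 and Crem in each DG group, with 1 point per mouse and a bar at the mean, FOS+ groups in red. At 1h, A>A and A>C the FOS+ mean is above the FOS− mean of the same exposure for Atf4 and below it for Crtc1, and HC mice spread over both. Crem is high at 1h FOS+ (2.47) and low in both A>A groups.

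The other members did not differ between A>A FOS+ and FOS− nuclei beyond the spread between mice. Atf2 was 3.97 ± 1.03 and 3.93 ± 0.48 (SD, n = 6 mice each), Creb1 1.48 ± 0.56 and 1.44 ± 0.49, Crtc2 2.09 ± 0.55 and 2.27 ± 0.79, Crtc3 2.63 ± 0.31 and 2.98 ± 0.77, Crebbp 3.82 ± 0.39 and 3.40 ± 0.76, and Ep300 1.88 ± 0.98 and 2.23 ± 0.52. Exact permutation p-values of these 6 ran from 0.264 for Crebbp to 0.937 for Atf2. Crtc3 was lower in FOS+ nuclei of 4 of 4 mice that gave both (difference -0.75, exact permutation p = 0.0286, the smallest that 4 against 4 allows), which the 12 values together did not show (p = 0.320 by the same exact test). The p of 0.0286 leaves out that the same 4 mice gave both kinds of nuclei. With a replicate block for the mouse, 4 pairs cannot go below 0.125. Crebbp passed without A>A mouse 25, higher in FOS+ nuclei by 0.76 (exact permutation p = 0.0317). For A>C edgeR and limma called 0 members between FOS+ and FOS− nuclei, as did DESeq2 (edgeR called 0% of 24405 genes, and 4.46% at an unadjusted p under 0.05, and DESeq2 called 4.58%). No member had groups that did not overlap at all, where 2.83% of 11196 genes did.

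**Figure D5:**
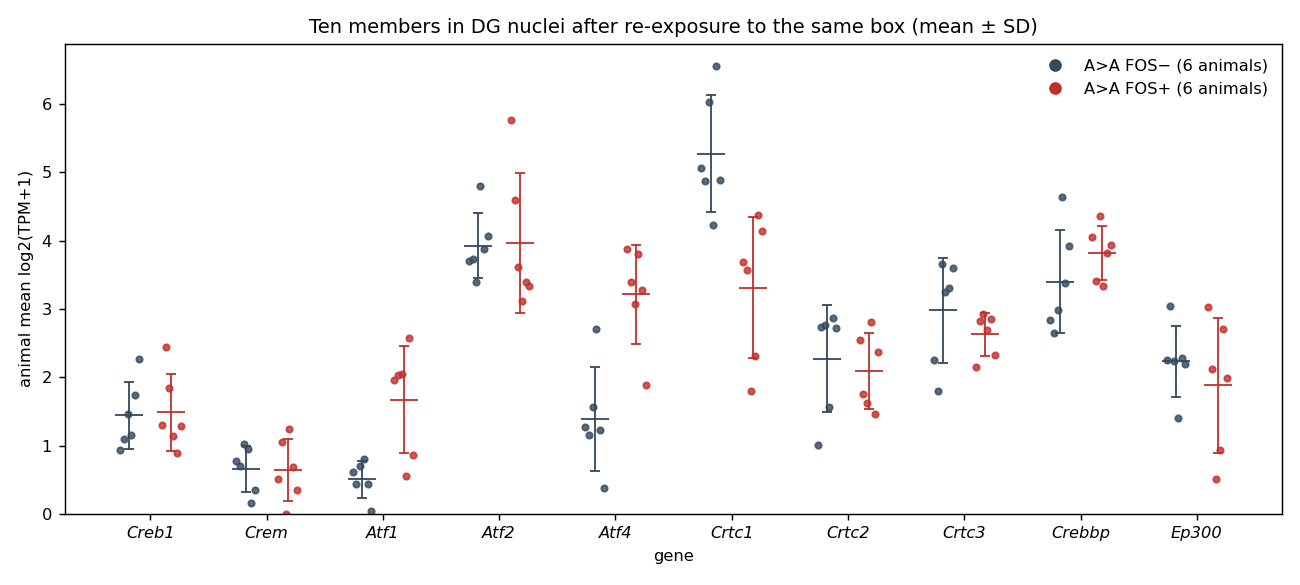
Animal mean log2(TPM+1) of each member in A>A FOS− and A>A FOS+ DG nuclei, with 1 point per mouse and the mean ± SD of 6 mice. Atf1 (0.50 and 1.67) and Atf4 (1.38 and 3.22) have higher and Crtc1 (5.27 and 3.31) has a lower mean in FOS+ nuclei. None of them passed the exact permutation test or edgeR once adjusted over all genes, while limma called Atf1 and Atf4. The other 7 overlap broadly.

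Against the 4h and 5h mice together, which had 1 exposure, Atf4 in A>A FOS+ nuclei and Ep300 in A>A FOS− nuclei had a raw p under 0.05, which is 1 of 10 members in each where 16.2% and 5.21% of all genes had one, and neither held after adjustment over all genes (0% of genes did). Ep300 was 2.25, 3.04, 2.23, 1.40, 2.29 and 2.19 in A>A FOS− nuclei of mice 19, 20, 24, 25, 26 and 27 and 1.70, 1.77, 0.94, 0.60, 1.82 and 1.83 in the 4h and 5h mice, with mouse 25 alone inside the range of the latter. The means were 2.23 ± 0.52 and 1.45 ± 0.53 (SD, n = 6 and 6, raw exact permutation p = 0.0195, and 0.932 adjusted), but the share of nuclei with a count did not pass before or after thinning (57.6% and 49.6%, then 41.9% and 29.3%, exact permutation p = 0.387 and 0.0736), and edgeR called 0 members for A>A FOS− against 5h (0% of 24405 genes, 10.7% at an unadjusted p under 0.05), as did DESeq2 (4.6% of genes). Which members had a raw p under 0.05 depended on single mice. Without 4h mouse 21 Crebbp passed too, lower in A>A FOS+ (-0.66, exact permutation p = 0.0433) and in A>A FOS− nuclei (-1.08, exact permutation p = 0.039). Atf1 in A>A FOS+ nuclei passed without A>A mouse 25 (1.06, exact permutation p = 0.0216), without A>A mouse 27 (1.00, exact permutation p = 0.026) or without 5h mouse 23 (0.97, exact permutation p = 0.0476), and Crebbp in A>A FOS− nuclei passed without A>A mouse 25 (-1.12, exact permutation p = 0.0216). All 3 permutation comparisons share groups, and no member had groups without overlap (2.64% of 11115 and 0.277% of 11177 genes did).

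The acetyltransferases and the CRTC genes gave few other differences. At 5h against HC edgeR gave 1.84 ± 0.67 for Crebbp (log2 fold change ± SE, adjusted p = 0.375) and 1.87 ± 0.87 for Crtc3 (adjusted p = 0.479), and DESeq2 called Crebbp (adjusted p = 0.0373). Crebbp was 4.59, 5.26, 4.37 and 3.86 in the 5h mice and 3.47 and 2.35 in the HC mice, so each 5h value lay above both HC values, as for 5.93% of 11479 genes. The 5h nuclei were the shallowest DG group. Crtc2 in VIP interneurons was 3.46 and 2.56 in FOS+ nuclei and 1.93, 1.20 and 2.30 in FOS− nuclei, with 2.81 and 1.39 in HC. There were 28 counts in 17 FOS− nuclei and 39 in 22 HC nuclei, against 1158 in 27 FOS+ nuclei. A count was found in 41.2% of FOS−, 72.7% of HC and 63.0% of FOS+ nuclei (11.8%, 27.3% and 44.4% thinned). The Crtc2 folds that follow therefore rest on a base near the floor. edgeR did not call Crtc2 for FOS+ over FOS− (4.35 ± 1.25, adjusted p = 0.816, with 0% of 15002 genes called and 5.67% at an unadjusted p under 0.05) or over HC (4.40 ± 1.47, adjusted p = 1.00, 0% and 2.43%), while DESeq2 called both (adjusted p = 2.1e-05 and 0.000232, 2.91% and 0.893% of genes called) and limma neither. In CA1 Creb1 was 2.83, 4.27 and 3.14 in FOS− nuclei at 1h and 2.12, 2.03 and 2.65 in HC nuclei (edgeR 2.98 ± 0.83, adjusted p = 0.94, with 0% of 14507 genes called and 5.03% unadjusted, and DESeq2 adjusted p = 0.00138, 1.77% called), but in FOS+ CA1 nuclei it was 2.06, 2.03 and 4.10.

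Among the genes around the family most calls fell on a list of CREB target genes, which was chosen with results of these samples known and holds textbook activity genes. Of 26 tested CREB target genes, edgeR called 3 higher and 0 lower in FOS+ over FOS− DG nuclei at 1h, namely Arc, Bdnf and Inhba, where it called 0.0451% of all 24405 genes. Both groups come from the same single mouse, the other DG groups supply the spread of this fit, and with the mouse as a block 0 of 24405 genes were called. DESeq2 called 13 of the 26 higher and limma 9 of 23. The median log2 fold change of the 26 was 5.49, with 23 of 26 higher, against 0.00 over all genes. Bdnf, a neurotrophin, had 9.62 in FOS+ and 3.55 in FOS− nuclei of the 1h mouse (3.56 ± 0.64, edgeR adjusted p = 0.0413), and Inhba, an activin subunit, had 10.75 and 1.72 (9.75 ± 1.50, edgeR adjusted p = 0.0166). Against HC edgeR called 7 targets (Arc, Bdnf, Inhba, Nptx2, Pim1, Scg2 and Vgf) higher and 0 lower in each of 1h FOS+ (1 mouse), 4h and 5h DG nuclei. DESeq2 called 14, 10 and 11 of 26 higher and limma 14, 6 and 6 of 23, with 0 lower. In FOS− nuclei of the 1h mouse 0 of 26 targets passed edgeR against HC (DESeq2 called 1 lower and limma 0), with 14 of 26 higher and a median of 0.13. Scg2, a secretogranin, rose by 1.81 ± 0.35, 2.67 ± 0.32 and 2.17 ± 0.29 (edgeR adjusted p = 0.023, 0.000225 and 0.00108), and Bdnf by 2.94 ± 0.48, 2.63 ± 0.43 and 2.09 ± 0.39 (adjusted p = 0.00665, 0.00607 and 0.0237). Several of these genes, Arc among them, are textbook markers of activity and not of CREB alone, and Arc protein chose the 4h and 5h nuclei.

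Among 15 other CREB and ATF factors edgeR called Atf3, an early ATF factor, higher in the same 3 comparisons with HC and called no other, where DESeq2 called 1, 2 and 2 factors higher Atf3 among them, and limma 1 in each, which was Atf3 at 1h and Creb3 at 4h and 5h. It had 0 counts in 23 HC DG nuclei, animal means of 4.29 in the 1h FOS+ nuclei and 2.21 and 2.57 in the 4h mice, and 0.20 to 1.88 in the 5h mice (edgeR adjusted p = 0.0156, 0.0291 and 0.0432). Between 1h FOS+ and FOS− nuclei edgeR and limma called 0 of these factors and DESeq2 called 1 higher and 1 lower, and after A>A edgeR called 0, DESeq2 1 higher, and limma 1 higher and 2 lower. A list of 32 kinases and phosphatases covered the pathway to CREB and CRTC, not only enzymes that act on these proteins directly. Of these, Camkk1, a calcium/calmodulin-dependent kinase kinase, was called higher at 4h against HC by edgeR (2.45 ± 0.43, adjusted p = 0.0128) and DESeq2 but not by limma. Its animal means were 5.96 and 7.54 against 3.39 and 4.15. edgeR and DESeq2 called no other of the 32 there, and limma called 1 lower. For 1h FOS+ over FOS− edgeR called 0 of 32, DESeq2 2 higher and limma 1 higher, and over HC edgeR called 0, DESeq2 3 higher and 1 lower, and limma 1 higher and 1 lower. In FOS− nuclei Camk2b, a CaMKII subunit, was higher in DG than in VIP interneurons (2.48 ± 0.44, edgeR adjusted p = 0.0088, not called by limma). edgeR called Bdnf higher in DG than in VIP (adjusted p = 0.000956) and lower in VIP than in CA1 (adjusted p = 0.00672), with 1 count in all FOS− VIP nuclei together. Of 11 tested other coactivators edgeR called 0 in each of these DG comparisons, and DESeq2 called 1, lower after A>A. In A>A FOS+ over FOS− nuclei edgeR called 0 of 26 targets, DESeq2 2 higher and limma 10 of 23 higher (0.041%, 3.6% and 2.96% of all genes called). The edgeR median was 1.50, with 23 of 26 higher, against -0.02 over all genes. Shares of all genes called in the other DG comparisons are given with the members above. In CA1 FOS+ over FOS− nuclei edgeR and limma called 0 of 20 tested targets (0% of all genes each) and DESeq2 5 higher (1.52%). The median was 3.43, with 19 of 20 higher, against -0.01 over all genes. In VIP interneurons edgeR and limma called 0 of 19 (0% of all genes each) and DESeq2 2 higher and 1 lower (2.91%). The median there was 1.57, with 12 of 19 higher, against 0.06.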

How the data were processed

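Single-nucleus SmartSeq2 libraries were trimmed with Solexa-QA++ and quantified with RSEM through Bowtie on mm10 (GRCm38) by the authors, who deposited expected counts and log2(TPM+1) values per gene. The annotation release is not given in the sources used here. The deposited counts were whole numbers, and 30 genes of the count tables and 23 of the log2 tables without a value were left out. Nuclei needed 100000 alignable reads per the labels and 4000 genes detected by log2(TPM+1), and FOS− nuclei of HC and 1h mice with Arc above 2.5 were removed, as in the study (35 nuclei). Cell types are the predictions in the labels. An animal was taken as an exposure plus a mouse number, on the reading that the same number stands for different mice in different exposures. This left 61 animal-by-group values of at least 2 nuclei. Some numbers occur on several library dates, so it is uncertain that each names a single mouse. An alternative therefore split animals by date. The nuclei of a mouse are not independent, and p-values measure the spread between mice.

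Counts were summed per animal and group and tested with edgeR's quasi-likelihood test (TMM, all groups of a cell type in 1 fit, Benjamini-Hochberg over all genes tested). A>A FOS+, A>A FOS− and the 4h and 5h mice were compared on animal means of log2(TPM+1) with two-sided exact permutation tests over 924 splits, 30 tests in all, printed as raw p and, for members with a raw p under 0.05, also Benjamini-Hochberg adjusted over all genes with a mean of at least 0.5. FOS+ and FOS− values of mice 24 to 27 share the mouse. Residuals of same-numbered A>A samples correlated between 0.06 and 0.12 and of other pairs between -0.12 and 0.10, and the block rests on the labels naming the same mouse. Alternatives were DESeq2, limma on animal means, DESeq2's size factors, no filter on low counts, at least 5 nuclei per sum, animals split by library date, all FOS− nuclei kept, 50000 reads and 3000 genes, the replicate block, mice 24 to 27 alone, shares of nuclei with a count, and each mouse left out. edgeR and DESeq2 were run on counts simulated for the A>A FOS+ against FOS− comparison, at a dispersion below that of these data and at a dispersion near it. That check was judged on edgeR alone, at the lower dispersion. Its results at the higher dispersion are not reported here, so it is not used to say what changes could be detected. limma, the permutation tests, thinning and the replicate block were not simulated. The text names all 10 members, genes of 4 pathway lists that passed the adjusted threshold, and Fos, Arc and Prox1 as sort checks. Crebbp, Atf1 and Crtc3 values for single left-out mice follow the members rule. Members and lists were chosen with earlier results of these data known. Promoter windows and gene starts are RefSeq on GRCm38.p6. Tools were R 4.3.3, edgeR 4.0.16, limma 3.58.1, DESeq2 1.42.0, Python 3.11.15, numpy 2.4.6, pandas 2.3.3, scipy 1.17.1 and matplotlib 3.10.9.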

Additional observations from a re-analysis of the deposited data

Results flagged for a closer look

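Crtc3 and Crebbp were picked out because the FOS+ minus FOS− differences of all mice had 1 sign in 1 cell type and the other sign in another. For Crtc3 the CA3 differences were close to 0. FOS+ minus FOS− was below 0 in 3 of 3 CA1 mice, with a mean of -1.63 on the log2 scale, and above 0 in 2 of 2 CA3 mice, with values of 0.02 and 0.12 and a mean of 0.07, a gap of -1.70 that was not tested. The thinned shares of nuclei with a Crtc3 count did not follow this, with differences of -20.0 and -37.5 percentage points in CA3 and of 13.3, 18.3 and -100.0 in CA1. Crebbp was higher in FOS+ nuclei of 2 of 2 VIP mice, with values of 0.06 and 0.91 and a mean of 0.49, and lower in 2 of 2 CA3 mice, with a mean of -1.16, a gap of 1.65 that was not tested either. The thinned shares differed by -5.4 and 25.7 percentage points in those VIP mice and by 0.0 and -12.5 in CA3. Crebbp was higher in FOS+ nuclei of 0 of 3 CA1 mice and 2 of 3 subiculum mice. Some mice gave nuclei to both cell types, and no mouse stood far from its group in the 30 member-by-group sets large enough to check.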

How the results depend on the processing

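edgeR called 0 of 10 members in each of 26 comparisons, also with DESeq2's size factors, no filter, split dates, all FOS− nuclei, looser limits, the replicate block and each mouse left out, wherever these could be fitted. At least 5 nuclei per sum left 23 of the 26. DESeq2 called 1 member in DG 1h FOS+ and in DG 4h against HC, 2 in DG 5h against HC, 1 in CA1 FOS+ and in CA1 FOS− against HC, 1 in VIP FOS+ against FOS− and against HC, 1 in subiculum FOS+ against FOS−, 1 in DG against VIP and 1 in CA3 against CA1. limma on animal means called 1 member in DG 1h FOS+ against HC, 1 in DG 5h against HC and 2 in A>A FOS+ against FOS−. limma weighs nuclei equally, whereas sums weigh deep nuclei more, and 60 of its 260 member values had the other sign.

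The exact permutation test gave a raw p under 0.05 for 3 members in A>A FOS+ against FOS−, 1 in FOS+ against 4h and 5h and 1 in FOS− against 4h and 5h, where 16.3%, 16.2% and 5.21% of all genes had one, and for 0 members and 0% of genes after adjustment over all genes. The first became 1 with mice 24 to 27 alone, which was Crtc3 and none of the 3. It became 0 with a replicate block for the mouse, where 4 pairs cannot go below 0.125, and ranged from 3 to 4 without single mice. The second became 2 with looser limits and 0 on shares of nuclei with a count, and ranged from 1 to 2 without single mice. The third became 2 with split dates, 0 on shares with a count and 0 on thinned shares, and ranged from 1 to 2. The cause of these changes was not tested. Of 392 alternative counts 366 were equal to the reported count or within 1.5 times of it, and of 376 member values that had not passed 64 had the other sign. The reported edgeR count was 0 in each of 26 comparisons, so an equal count there is 0 against 0. Since edgeR called few genes at all, that agreement carries little weight. In 5h nuclei and in types with 1 or 2 mice, depth and number limit what could be detected.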
